A study of Callithrix jacchus with 39 samples.

Results

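One-tissue promoter-like regions are stretches of marmoset chromatin that carried H3K27ac in a single tissue and H3K4me3 in that same tissue. Of 65161 catalogue regions with H3K27ac, 38212 were acetylated in exactly 1 tissue (58.6%), and 5112 of these also overlapped an H3K4me3 peak of their own tissue. The 5112 regions made up 13.4% of the one-tissue regions and 7.85% of the catalogue. The catalogue was built from H3K27ac peaks that overlapped a peak of the other replicate by at least 1 bp, merged over 8 tissues. The regions were chosen by peak calls of both marks in the own tissue and of H3K27ac in the others. Measures taken from those same calls are therefore described without a test. A test is given for H3K4me3 of other tissues alone. Neighbouring regions, and H3K4me3 regions shared with acetylation of several tissues, rest on the lists that chose the regions and are described too. The word promoter-like refers to the rule alone, because no gene annotation of the files' genome build, calJac3, was used here.

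H3K27ac is an acetylation of histone H3 laid down at promoters and enhancers in use. H3K4me3 is a trimethylation of the same histone that concentrates around transcription start sites. CpG-rich promoters commonly hold H3K4me3 in many tissues, including tissues in which the gene is little used, whereas acetylation follows activity more closely. A promoter can therefore be acetylated in 1 tissue and still carry H3K4me3 in others.

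The study mapped both marks by ChIP-seq in the common marmoset (Callithrix jacchus), a New World monkey, in organs of the digestive tract (stomach, colon, liver and pancreas), in heart and skeletal muscle, and in kidney and spleen. No treatment or genotype is named in the labels, and neither age nor the number of animals is given. Each tissue had 2 numbered replicates per mark, except that the heart had 1 H3K4me3 library (replicate 2), which gave 16 H3K27ac and 15 H3K4me3 peak lists. Nothing in the labels ties the replicates to separate animals, so the p-values below measure spread between tissues of this collection and not between individuals. H3K27ac lists held 24590 to 51554 peaks and H3K4me3 lists 16386 to 24424. Read depth is unknown, and a region without a peak is only one where no peak was called. In whole tissue, fewer cells of a type with a mark and less of the mark per cell cannot be told apart.

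The tissue labels were checked against regions with H3K27ac in a single tissue and in no library of any other tissue. Of the 15 H3K4me3 libraries, 14 overlapped the regions of their labelled tissue most often. The library labelled skeletal muscle H3K4me3 replicate 1 overlapped 0.45% of the 5345 skeletal muscle regions but 8.45% of the 343 heart regions. The heart H3K4me3 library overlapped 8.45% of the heart regions, and skeletal muscle H3K4me3 replicate 2 overlapped 9.80% of the skeletal muscle regions and 8.16% of the heart regions. The library labelled skeletal muscle H3K4me3 replicate 1 thus goes against its label. It was kept under its label. Some results that rest on it are also given without it, and all other values include it.

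**Figure D1:**
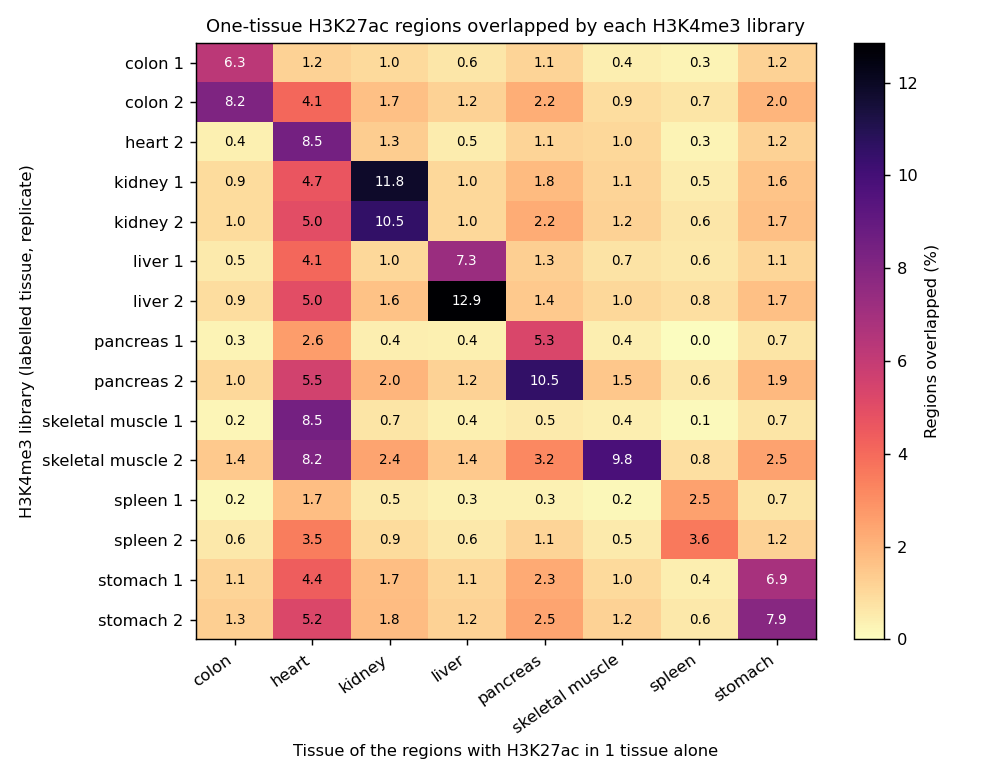
Share of regions with H3K27ac in 1 tissue alone (columns) overlapped by each of the 15 H3K4me3 libraries (rows, labelled tissue and replicate number), in percent, with darker cells for higher shares. The library labelled skeletal muscle 1 is highest in the heart column, at 8.45%, and reaches 0.45% in the skeletal muscle column.

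One-tissue promoter-like regions were most numerous in liver. Liver had 1708, skeletal muscle 917, colon 876, pancreas 466, kidney 394, spleen 374, stomach 232 and heart 145. As a share of all one-tissue regions of a tissue they varied less, between 8.47% in spleen and 15.8% in liver. The 1708 liver regions were 33.4% of the whole set. The H3K27ac lists were likewise longest in liver and shortest in heart. With each list reduced to its 20000 strongest peaks (shorter lists kept whole), liver had 1046, skeletal muscle 684, colon 606, spleen 507, kidney 343, pancreas 329, heart 289 and stomach 246. Liver thus still led on lists of more equal length, at 25.8% of 4050 regions, while the heart count was higher than with the full lists and stomach had the fewest.

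The regions were short to middling in length, and H3K4me3 covered most of the typical region. Median length was 986.5 bp over all 5112 regions and ran between 676 bp in heart and 1180 bp in liver. The longest region measured 7768 bp, in skeletal muscle. H3K4me3 of the own tissue covered a median of between 52.8% (spleen) and 76.1% (kidney) of the region. The H3K27ac summit and the H3K4me3 summit lay a median of 136 bp (liver) to 218.5 bp (skeletal muscle) apart, against 89 bp (liver) to 145.5 bp (pancreas) between the 2 H3K27ac replicates. The set touched 5393 separate H3K4me3 regions of the own tissue. Of the regions, 410 (8.02%) shared such an H3K4me3 region with another of the set, up to 3 on 1, so they are not all separate promoters.

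By distance few regions stood at the limits of the rule, but by library many did. Just inside it, 32 regions had at most 50 bp of own-tissue H3K4me3. Just outside it, 38 one-tissue regions had own-tissue H3K4me3 within 50 bp but not touching, and 985 had it within 500 bp. On the side of acetylation, 2487 regions with own-tissue H3K4me3 were acetylated in exactly 2 tissues, with a median length of 1344 bp. Of the 5112 regions, 2552 (49.9%) had an H3K27ac peak in at least 1 library of another tissue, and 2566 of the 4967 regions outside heart (51.7%) had own-tissue H3K4me3 in only 1 of the 2 libraries.

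The peaks in these regions were of middle rank for H3K27ac and low rank for H3K4me3 within their lists. Ranks are percentiles of the authors' fold enrichment within each list, where 100 is the strongest peak, and they are given as a description with no test. H3K27ac ranked at 49.8 ± 6.93 in one-tissue promoter-like regions, at 39.2 ± 5.07 in one-tissue regions without own H3K4me3 and at 79.2 ± 2.16 in regions of 2 or more tissues with H3K4me3 (mean of tissue values ± SD, n = 8). H3K4me3 ranked at 30.3 ± 5.46 in one-tissue promoter-like regions and at 67.6 ± 2.04 in regions of 2 or more tissues. Among one-tissue promoter-like regions it ranked at 22.1 ± 7.01 where no other tissue had H3K4me3 and at 51.8 ± 8.30 where all 7 others had it. H3K27ac rank hardly separated those classes, at 51.7 ± 6.33 and 51.0 ± 6.81.

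How far H3K4me3 reached beyond the acetylated tissue split the set toward its ends. In 2848 regions (55.7%) no other tissue had an H3K4me3 peak. In 619 regions (12.1%) all 7 other tissues had one. Between these ends, 501 regions had H3K4me3 in 1 other tissue, 231 in 2, 183 in 3, 194 in 4, 231 in 5 and 305 in 6. With the 20000 strongest peaks of each list, 1786 of 4050 regions (44.1%) had H3K4me3 in no other tissue and 883 (21.8%) in all 7, and with the 16000 strongest H3K4me3 peaks 1708 of 3168 (53.9%) and 344 (10.9%). The share without H3K4me3 elsewhere was 65.6% in liver, 60.4% in kidney, 59.5% in skeletal muscle, 53.4% in colon, 48.4% in spleen, 41.4% in stomach, 40.1% in pancreas and 8.28% in heart. Heart stood apart, with 12 of 145 regions in the first class and 59 (40.7%) with H3K4me3 in all 7 other tissues. Heart regions could enter through 1 H3K4me3 library alone, those of the other tissues through either of 2. In those 7 tissues 1015 of 2836 regions of the first class had own-tissue H3K4me3 in both libraries. With H3K4me3 in all 7 other tissues it was 472 of 560. What the single library did to the heart shares was not tested. Without the library labelled skeletal muscle H3K4me3 replicate 1, heart had 25 regions (17.2%) without H3K4me3 elsewhere, and 59 with it in all 7.

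**Figure D2:**
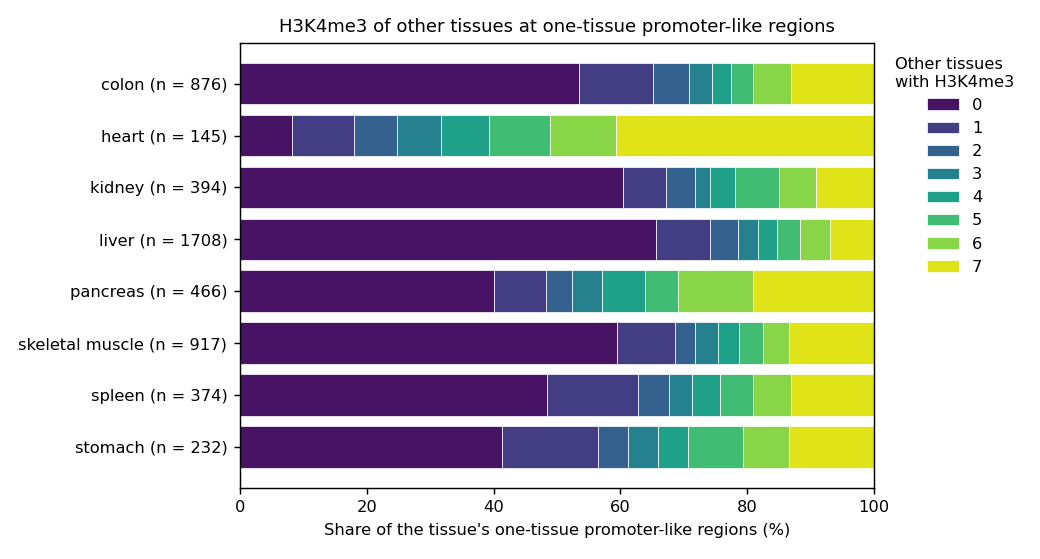
Each bar is the one-tissue promoter-like regions of 1 tissue (number in brackets), divided by how many of the 7 other tissues had an H3K4me3 peak there, as a share in percent. Liver has the largest share with none (65.6%), and heart, which had 1 H3K4me3 library, has the smallest (8.28%) and the largest share with all 7 (40.7%).

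H3K4me3 in other tissues was far more frequent at one-tissue promoter-like regions than at one-tissue regions without own H3K4me3. By tissue the share with H3K4me3 of at least 1 other tissue was 91.7% in heart, 59.9% in pancreas, 58.6% in stomach, 51.6% in spleen, 46.6% in colon, 40.5% in skeletal muscle, 39.6% in kidney and 34.4% in liver. At one-tissue regions without own H3K4me3 it was 10.6% in heart and between 1.1% and 3.46% in the other 7 tissues, so the classes did not overlap. The background, pooled over all one-tissue regions so that tissues with many regions weigh more, was 7.63%. The means were 52.9 ± 18.1% and 3.18 ± 3.13%, a difference of 49.7 ± 15.3 percentage points (SD, n = 8), higher in 8 of 8 tissues (exact permutation over sign flips, p = 0.00781, adjusted p = 0.0208). The test flips the signs of the tissue differences and is two-sided. The value 0.00781 is the smallest that 8 tissues allow. Adjustment was by Benjamini-Hochberg over the 8 planned comparisons. Those described here without a test entered the adjustment too, so the adjusted value rests in part on them. Without the library labelled skeletal muscle H3K4me3 replicate 1 the difference was 48.6 points, and over the other alternative settings it ran from 29.7 to 57.4 points. Of the 2560 one-tissue promoter-like regions with no H3K27ac in any library elsewhere, 2004 had no H3K4me3 elsewhere either.

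Where other tissues also carried H3K4me3, the own tissue's H3K4me3 covered more of the region, a description without a test, since the regions were chosen by H3K4me3 and H3K27ac of the own tissue. Counting only tissues with H3K4me3 at a region, its covered length there averaged 689 ± 111 bp in the own tissue and 482 ± 24.7 bp in the others (SD, n = 8). The difference was 208 ± 97.3 bp and was positive in 8 of 8 tissues. Skeletal muscle showed the widest gap, 800 bp against 474 bp, and heart the narrowest, 536 bp against 475 bp. Kidney (808 bp against 514 bp), liver (792 bp against 508 bp) and colon (760 bp against 487 bp) lay near the upper end.

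**Figure D3:**
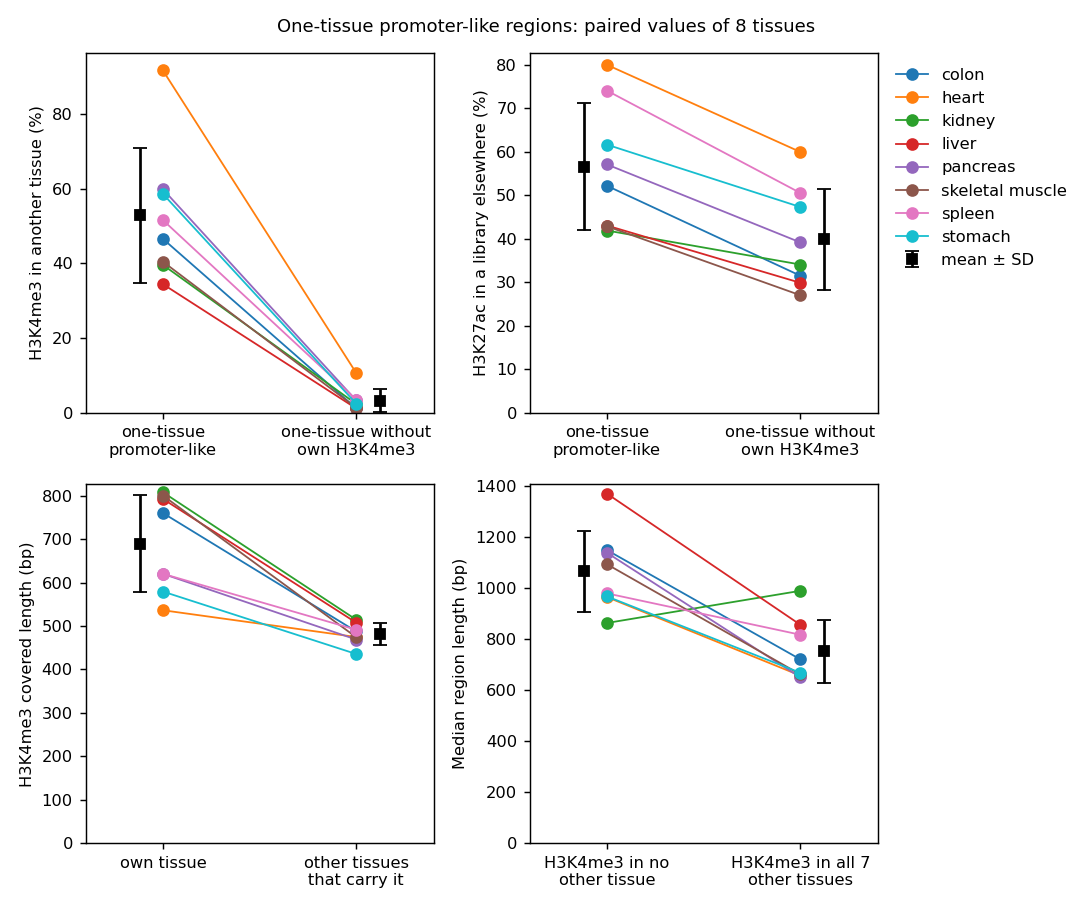
Paired values of the 8 tissues (coloured points joined by lines) with mean ± SD (black): the share with H3K4me3 in another tissue and the share with H3K27ac in a library of another tissue, both in percent, then H3K4me3 covered length and median region length, both in bp. Lines slope down to the right in 8 of 8 tissues in the first 3 panels, and in 7 of 8 for region length, where kidney slopes up.

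The own-tissue H3K4me3 of these regions was seen in both replicates far less often than that of regions acetylated in several tissues. This is a description without a test, since H3K4me3 in either library chose the regions. In the 7 tissues with 2 H3K4me3 libraries, both held a peak in 50.4 ± 19.3% of one-tissue promoter-like regions and in 91.4 ± 3.78% of regions of 2 or more tissues (SD, n = 7). The background, pooled over all acetylated regions with H3K4me3 of these tissues, was 89%. The difference was -41.0 ± 16.8 points, lower in 7 of 7 tissues. Kidney had the highest share in both replicates, 70.1% against 95.0%, followed by stomach with 64.2% against 95.4%. Colon had 59.4% against 92.8%, liver 56.4% against 91.6%, pancreas 47.2% against 85.3% and spleen 43.6% against 92.3%. Skeletal muscle had 12% against 87.2%.

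Skeletal muscle rested on 1 library. Of its 917 regions, 804 had H3K4me3 in replicate 2 alone, 3 in the library labelled replicate 1 alone and 110 in both. Without replicate 2 it had 113 regions, and without the library labelled replicate 1 it had 914. Without the library labelled replicate 1, the difference in replicate support over the 6 remaining tissues was -35.3 points. Pancreas was also uneven, with 242 regions in replicate 2 alone, 4 in replicate 1 alone and 220 in both. In liver 695 regions were in replicate 2 alone and 50 in replicate 1 alone. Colon (269 against 87), spleen (140 against 71) and stomach (55 against 28) leaned the same way, and kidney the other way (44 against 74). The H3K4me3 list of replicate 2 was the longer in all 7 tissues, though barely so in kidney (21046 against 21008 peaks). The part that list length played in replicate support was not tested.

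Replicate support went with how many tissues carried H3K4me3. It was 37.9 ± 20.0% where no other tissue had H3K4me3 and 86.8 ± 16.3% where all 7 had it. The difference was -49.0 ± 7.94 points, negative in 7 of 7 tissues (SD, n = 7). It is described without a test, since own-tissue H3K4me3 in either library chose the regions. In steps from 0 to 7 other tissues the mean share was 37.9%, 44.9%, 55.3%, 49.7%, 61.9%, 66.1%, 71.9% and 86.8%. In kidney all 36 regions with H3K4me3 in all 7 others had it in both replicates, and in skeletal muscle 56.6% of 122 did. Where no other tissue had it, kidney reached 63.4% and skeletal muscle 0.73%, which is 4 of 546 regions. Without the library labelled skeletal muscle H3K4me3 replicate 1, which leaves 6 tissues, the difference was -47.7 points.

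**Figure D4:**
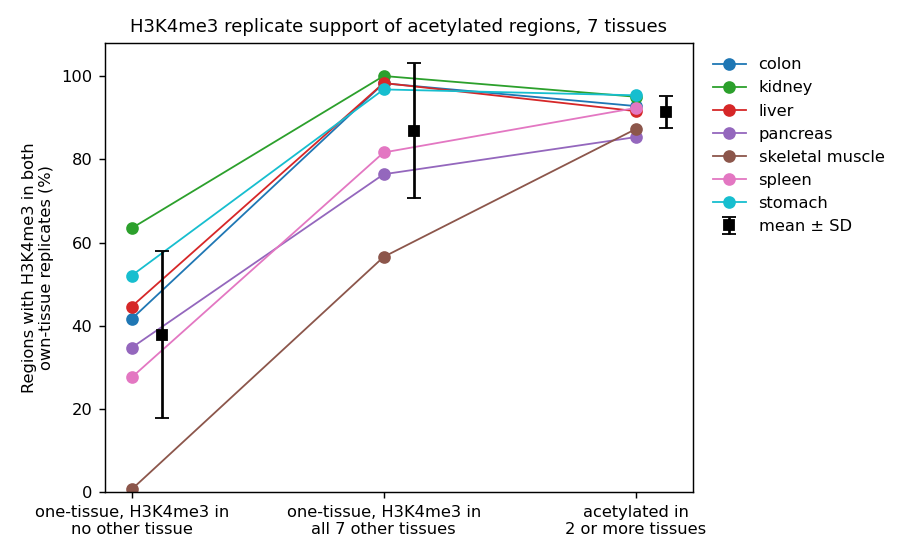
Share of regions with H3K4me3 in both replicates of the own tissue, in percent, for 7 tissues (coloured lines) with mean ± SD (black squares): one-tissue promoter-like regions with H3K4me3 in no other tissue, those with it in all 7 others, and regions acetylated in 2 or more tissues with H3K4me3. The first class averages 37.9%, the second 86.8% and the last 91.4%, and skeletal muscle is lowest in the first 2.

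Regions whose H3K4me3 was absent from other tissues were longer. Median length of the own-tissue H3K27ac averaged 1065 ± 158 bp in that class and 752 ± 124 bp where all 7 other tissues had H3K4me3 (SD, n = 8). The difference was 313 ± 212 bp, positive in 7 of 8 tissues. It is described without a test, since the own-tissue H3K27ac calls chose the regions. Liver had 1370 bp against 856 bp, pancreas 1138 bp against 650 bp, skeletal muscle 1093 bp against 662 bp and colon 1149 bp against 721 bp. Kidney went the other way, with 863 bp against 989 bp, over 238 and 36 regions. The heart value, 965 bp against 657 bp, rests on 12 regions in the first class. When regions with any H3K27ac peak in a library elsewhere were left out, the difference was smaller, at 172 ± 200 bp in 7 tissues.

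Many of these regions had H3K27ac in a library of another tissue that was not reproducible in that tissue. The rule bars only reproducible peaks of other tissues, and 2560 regions had no H3K27ac peak in any library elsewhere, 1282 had one in 1 other tissue and 1270 in 2 or more. Pooled over all one-tissue regions, where tissues with many regions weigh more, the background share with such a peak was 36.8%. The share averaged 56.6 ± 14.6% in one-tissue promoter-like regions and 39.9 ± 11.6% in one-tissue regions without own H3K4me3, a difference of 16.7 ± 4.97 points (SD, n = 8). It was higher in 8 of 8 tissues, and it is given without a test, since H3K27ac of those tissues entered the choice of the regions. Heart had 80% against 59.9% and spleen 74.1% against 50.5%. Kidney had 41.9% against 34.1%, the smallest gap. The share also followed H3K4me3, at 35.2 ± 13.2% with H3K4me3 in no other tissue and 85.3 ± 5.18% with it in all 7, given here with no test. Liver H3K27ac replicate 2, the longest list, held a peak at 41.9% (stomach) to 64.0% (colon) of the latter. Liver replicate 1 held one at 0% (skeletal muscle) to 14.3% (spleen). Among liver regions of that class, where no liver library counts, the share was 81.5%. Regions with both marks in no library of any other tissue numbered 2004 (39.2% of the set), of which liver held 816, skeletal muscle 408, colon 324, kidney 182, pancreas 135, spleen 72, stomach 61 and heart 6.

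Where exactly 1 other tissue had H3K4me3, that tissue was unevenly spread, though the counts were small and were not tested. Of the 103 colon regions with H3K4me3 in exactly 1 other tissue, 50 (48.5%) had it in stomach, and of the 35 stomach regions 19 (54.3%) had it in colon. Of the 83 skeletal muscle regions 39 (47.0%) had it in heart, 38 of them with own-tissue H3K4me3 in replicate 2. Of the 14 heart regions 13 had it in skeletal muscle, and all 13 came from the library labelled skeletal muscle H3K4me3 replicate 1. Without that library heart had 5 such regions, and no tissue held more than 2 of them. Liver regions had kidney as the partner in 58 of 147 (39.5%), while kidney regions had liver in 8 of 27 and skeletal muscle in 7. Spleen regions had liver in 29 of 54 (53.7%), and pancreas regions had stomach in 13 of 38 (34.2%). Over the regions of the other 7 tissues with exactly 1 other tissue, kidney was that tissue in 21.9%, liver in 20.6%, stomach in 20.2%, colon in 17.6%, skeletal muscle in 15.1% and heart in 9.65%. With the 16000 strongest H3K4me3 peaks of each list, colon regions with stomach alone numbered 16, stomach regions with colon 5, skeletal muscle regions with heart 22, liver regions with kidney 28, kidney regions with liver 2, pancreas regions with stomach 6 and spleen regions with liver 2, so the spleen count in particular did not hold. With the 20000 strongest peaks of both marks the spleen count was 42 and the colon count 38.

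**Figure D5:**
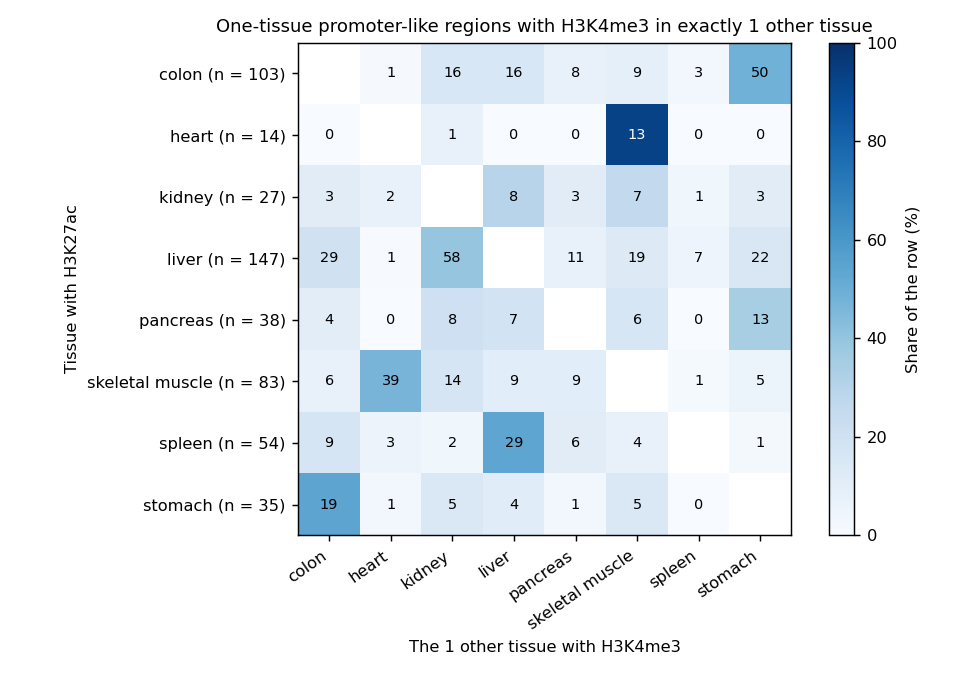
Number of one-tissue promoter-like regions with H3K4me3 in exactly 1 other tissue, by the tissue with H3K27ac (rows, total in brackets) and the other tissue with H3K4me3 (columns), coloured by share of the row in percent. Colon and stomach fill each other's cells with 50 and 19 regions, and the 13 heart regions in the skeletal muscle column come from 1 library.

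Unreproduced H3K27ac elsewhere fell in some of the same tissues. Of the 876 colon regions, 220 (25.1%) had an H3K27ac peak in a stomach library and 216 (24.7%) in a liver library, 195 of them in liver replicate 2. Of the 917 skeletal muscle regions 180 (19.6%) had one in heart. Of the 374 spleen regions 165 (44.1%) had one in pancreas and 141 (37.7%) in liver. Among the 181 spleen regions without H3K4me3 elsewhere, 67 (37.0%) still had H3K27ac in a pancreas library. Most of these rested on 1 library, with a peak of pancreas replicate 1 at 54 regions and of replicate 2 at 13. The part that list length played in these shares was not tested.

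The mean share of regions with one-tissue neighbours was close to that of other one-tissue regions. Pooled over all one-tissue regions, where tissues with many regions weigh more, 47.9% had another region acetylated in the same single tissue within 10 kb. As a mean of tissue values this share was 43.0 ± 12.1% in one-tissue promoter-like regions (SD, n = 8). In one-tissue regions without own H3K4me3 it was 41.5 ± 11.7%. The difference was 1.48 ± 5.04 points, positive in 4 tissues and negative in 4. It is described without a test, since neighbours are set by the H3K27ac calls that also chose the regions. Kidney differed most, at 51.3% against 39.3%, and colon went the other way, at 43.5% against 48.3%. When regions with any H3K27ac in a library elsewhere were left out, the difference was 9.33 points and positive in 8 of 8 tissues. That setting filters both the regions and their neighbours by the same calls.

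Few of the regions lay on an H3K4me3 region that also held acetylation shared between tissues. That was so for 5.30 ± 4.91% of regions with H3K4me3 in no other tissue and for 8.98 ± 4.36% of those with it in all 7 (SD, n = 8). The difference was -3.67 ± 7.41 points, with 6 tissues negative and 2 positive. It is described without a test, since own-tissue H3K4me3 and H3K27ac calls chose the regions. Spleen (2.21% against 14.3%) and stomach (1.04% against 12.9%) had the widest gaps. Kidney, with 5.46% against 0%, and heart, with 16.7% against 8.47%, ran the other way. Without heart H3K27ac replicate 1 the difference was -5.51 points and without kidney H3K27ac replicate 2 it was -5.22 points.

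One-tissue regions on chromosomes 22 and X had own-tissue H3K4me3 more often than those on the other autosomes, a description with no test. On chromosome 22, 227 of 1033 one-tissue regions (22%) had own-tissue H3K4me3, and on chromosome X 139 of 653 (21.3%). On the other autosomes it was 12.8%. Chromosome 22 was above the other autosomes in 8 of 8 tissues, with 33.8% against 13.6% in pancreas and 26.7% against 12.5% in colon. Chromosome X was above them in 7 of 8, with 33.0% against 11.7% in skeletal muscle, while stomach had 7.41%, which is 2 regions. On unplaced and random sequences 19.6% of the one-tissue regions had own-tissue H3K4me3, and on chromosome Y 9 of 42 (21.4%). Over all catalogue regions chromosome 22 stood out less. The set was 9.18% of its catalogue regions and 11.3% of those on X, against 7.85% of the whole catalogue. Chromosomes 6 and 18 had 8.95% and 8.85%. Only 1033 of the 2474 catalogue regions on chromosome 22 were one-tissue regions.

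Single regions show the range of these patterns. In each tissue the 2 regions with the largest H3K27ac covered length among those without H3K4me3 elsewhere, and the largest among those with H3K4me3 in all 7 other tissues, are taken as examples. They were chosen for length, so their lengths are a description. Positions are 1-based calJac3 coordinates, and no gene was assigned to them.

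The largest colon region without H3K4me3 elsewhere lay on chromosome 7, from 60390909 to 60398616. H3K27ac covered 7.71 kb and 6.53 kb of it in the 2 colon replicates and H3K4me3 1.86 kb and 2.85 kb, and no library of another tissue had H3K27ac there. It was thus marked in colon in all 4 libraries and unmarked elsewhere. The second, on chromosome 21 from 46233136 to 46238564, had 5.30 kb and 4.53 kb of H3K27ac but 0.307 kb of H3K4me3 in replicate 2 alone. The colon region with H3K4me3 in all 7 others lay on chromosome 4 from 135680515 to 135683561, with 2.264 kb and 2.64 kb of H3K4me3 in colon and 0.940 to 2.258 kb in the other tissues.

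In liver the largest region without H3K4me3 elsewhere lay on an unplaced sequence, chrUn_GL286373, from 195894 to 203622. It had 7.35 kb and 6.31 kb of H3K27ac and 2.60 kb and 2.83 kb of H3K4me3. The second, on chromosome 7 from 6137797 to 6144773, had 6.94 kb and 6.39 kb of H3K27ac and 2.85 kb and 4.96 kb of H3K4me3. Neither had H3K27ac in any other library. The liver region with H3K4me3 in all 7 others, on chromosome 18 from 33060083 to 33065640, had 2.98 kb and 3.69 kb of H3K4me3 in liver and 0.348 to 1.3 kb elsewhere. It lay 0.222 kb from a region acetylated in 2 or more tissues.

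Skeletal muscle showed its dependence on 1 library in single regions too. The largest without H3K4me3 elsewhere, on chromosome 3 from 94024669 to 94030477, had 5.81 kb and 5.46 kb of H3K27ac, 5.70 kb of H3K4me3 in replicate 2 and none in the library labelled replicate 1. The second, on chromosome 14 from 81158909 to 81163935, had 3.24 kb of H3K4me3 in replicate 2, none in the library labelled replicate 1, and a 1.122 kb stretch of H3K27ac in a heart library. The region with H3K4me3 in all 7 others, on chromosome 10 from 85657836 to 85660559, had H3K4me3 in both, at 0.554 kb in the library labelled replicate 1 and 2.64 kb in replicate 2.

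Kidney and spleen held long regions with H3K4me3 everywhere. The kidney region, on chromosome 5 from 87364823 to 87370349, had 5.47 kb and 5.41 kb of H3K4me3 in kidney against 0.316 to 1.74 kb in the other tissues. The spleen region, on chromosome 3 from 177855850 to 177861862, had 6.01 kb and 5.19 kb of H3K27ac, and 3.31 kb and 2.22 kb of H3K4me3 in spleen against 1.22 to 2.50 kb elsewhere. In kidney the own H3K4me3 thus exceeded that of every other tissue, while in spleen replicate 2 lay inside the range of the others. Without H3K4me3 elsewhere, the 2 kidney examples differed: the region on chromosome 11 from 33020622 to 33023849 had 0.306 kb of H3K4me3 in replicate 1 alone, and the one on chromosome 4 from 161923887 to 161926947 had 2.88 kb and 2.89 kb. The spleen examples, on chromosome 5 from 112834013 to 112837756 and on chromosome X from 57777588 to 57781100, had H3K4me3 in both replicates, at 0.303 to 1.08 kb, and each had H3K27ac in 1 pancreas library.

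Pancreas and stomach examples covered similar ground. On chromosome 1 from 160910702 to 160915117, pancreas had 3.29 kb and 4.19 kb of H3K27ac and 1.71 kb of H3K4me3 in replicate 2 alone. On chromosome 17 from 1947440 to 1951695 it had H3K4me3 in both replicates, at 1.27 kb and 3.41 kb. These 2 regions match the uneven pancreas replicates given above. The pancreas region with H3K4me3 in all 7 others, on chromosome 3 from 109588674 to 109592323, had 1.78 kb and 2.82 kb of H3K4me3 in pancreas against 1.03 to 1.77 kb elsewhere. The largest stomach region without H3K4me3 elsewhere, on chromosome 14 from 7033136 to 7039837, had 4.62 kb and 6.37 kb of H3K27ac and 3.20 kb and 4.43 kb of H3K4me3. The second stomach region, on chromosome 19 from 28051903 to 28054572, had 2.004 kb and 2.07 kb of H3K4me3. In both of them no other library had H3K27ac. The stomach region with H3K4me3 in all 7 others, on chromosome 1 from 9830424 to 9832990, was covered by H3K4me3 over its whole 2.57 kb in both replicates, against 0.629 to 1.41 kb elsewhere.

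Heart examples were short. The largest without H3K4me3 elsewhere, on chromosome 15 from 22509670 to 22511109, had 1.44 kb and 1.04 kb of H3K27ac, 1.16 kb of H3K4me3 in the single heart library and 1.02 kb of H3K27ac in a skeletal muscle library. The second, on chromosome 4 from 153625515 to 153627306, had 1.28 kb and 1.08 kb of H3K27ac and 0.678 kb of H3K4me3. The region with H3K4me3 in all 7 others, on chromosome 3 from 42607549 to 42608898, had H3K4me3 over its whole 1.35 kb in heart and over 1.07 to 1.28 kb in the others. Heart was also the tissue with the shortest H3K27ac lists.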

How the data were processed

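ChIP-seq peak lists of H3K27ac and H3K4me3 in narrowPeak form, 1 per library, were used as deposited, so peaks were called per sample. Tools listed in the submitters' processing notes, with no role or order, were MACS2 2.1.1.20160309, bedtools 2.26, Bowtie 1.1.2 and SAMtools 1.3.1. Genome build calJac3 was taken from the peak names. The deposited score, the deposited fold enrichment (a ratio) and the deposited −log10 p and −log10 q are the authors' values. The lowest −log10 p was 5.09 and the lowest −log10 q 3.04. Only positions entered the main comparisons, fold enrichment served to rank peaks within a list, and the score was not used. In the alternatives the strongest peaks were those with the highest −log10 p, and the stricter lists kept peaks with −log10 q of at least 5. Depth is unknown, so no interval or floor was computed. The 8 input samples are not analysed here.

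Titles gave the tissue, the mark and the replicate number of each library. Overlap meant at least 1 bp, and overlapping or touching intervals were merged, using numpy 2.4.6 and scipy 1.17.1 under Python 3.11.15 (figures, matplotlib 3.10.9). Classes were compared over tissues by two-sided exact sign-flip permutation tests, with Benjamini-Hochberg adjustment over the 8 planned. Most of these used calls that also chose the regions, so no p is given for them, though they entered the adjustment. They were own-tissue H3K4me3 in both replicates (against regions of several tissues and between classes), own against other H3K4me3 length, region length, and H3K27ac in libraries elsewhere. Neighbouring regions and shared H3K4me3 regions were the others. The code was tested on simulated data. Example regions were the 2 with the largest mean H3K27ac covered length per tissue without H3K4me3 elsewhere and the 1 with it in all 7 other tissues, ties going to the lower chromosome name and start. The regions, classes and comparisons were chosen with earlier results of these data known. Alternatives were stricter or equal-length lists, 50% overlap, assembled chromosomes alone, H3K4me3 in every library, no H3K27ac in any other library, regions cut to 300 bp, the replicate number as a block, and each library left out. No gene was assigned and no sequence is given, because no genome or annotation of calJac3 was used here.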

Additional observations from a re-analysis of the deposited data

Results flagged for a closer look

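A tissue whose value lay far from those of the other tissues was looked for in 16 sets of tissue values, and 4 such values were found. Chance gives about 1 such value in 20 sets. These sets share regions, so the 4 values are not independent, and whether chance gave them was not tested.

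Heart, the tissue with 1 H3K4me3 library, stood apart in 3 of them. The share of its one-tissue promoter-like regions with H3K4me3 in another tissue was 91.7%, above the 34.4% to 59.9% of the other 7 tissues, and it was 82.8% without the library labelled skeletal muscle H3K4me3 replicate 1. The share with H3K4me3 in all 7 other tissues was 40.7%, above the 6.97% to 19.1% of the others. Of heart regions with H3K4me3 in no other tissue, 16.7% lay on an H3K4me3 region shared with a region of 2 or more tissues, which is 2 of 12 regions, against 1.04% to 6.42% in the others. Kidney gave the last value, with 0% of its 36 regions with H3K4me3 in all 7 other tissues on such a shared H3K4me3 region, against 7.56% to 14.3% in the others.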

How the results depend on the processing

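Under each of 11 alternatives and each of 31 left-out libraries, H3K4me3 elsewhere kept its direction and its side of the threshold (29.7 to 57.4 points). Of the differences described without a test, H3K27ac in a library elsewhere (14.7 to 22.5 points under the alternatives) and own against other H3K4me3 length (155 to 284 bp) kept their direction under them too. The threshold was set on exact permutation values, not adjusted. With no H3K27ac in any library elsewhere, the length difference was 172 bp and the neighbour difference 9.33 points. The shared H3K4me3 difference was then 0.73 points, the opposite sign, and with H3K4me3 required in every library it was 2.78 points. The cause was not tested. Leaving out the heart, leaving out skeletal muscle with pancreas, and setting the central 300 bp against H3K27ac elsewhere were chosen after seeing the data. Without skeletal muscle and pancreas, replicate support differed by -34.7 points from regions of several tissues and by -49.1 points between the classes. Region length differed by 264 bp. These values are given with no test. The set numbered 3168 with the 16000 strongest H3K4me3 peaks per list, 2546 with H3K4me3 in every library and 2560 with no H3K27ac in any library elsewhere, in place of 5112.

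Leaving out each library gave 44.4 to 55.8 points for H3K4me3 elsewhere, -43.6 to -35.3 for replicate support, 12.3 to 21 for H3K27ac elsewhere, 209 to 356 bp for region length, -53.1 to -44.9 points for support between classes, -8.29 to -1.66 for shared H3K4me3, 163 to 218 bp for H3K4me3 length, -1.35 to 3.31 points for neighbours and 4308 to 6107 regions. The lowest neighbour value came without skeletal muscle H3K4me3 replicate 2. Without an H3K27ac library, the other list of that tissue stood unfiltered. Of the other counts by tissue and class 633 of 741 moved little and none reversed, and of the 48 values of example regions 45 moved little.

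With the replicate number as a block the set averaged 3756.5 regions and H3K4me3 elsewhere differed by 50.9 points, and no call changed. Comparisons of both replicates could not be run under this pairing, nor with H3K4me3 required in every library, nor H3K27ac elsewhere when such regions were left out. Same-numbered libraries shared deviations weakly (r -0.02 to 0.09 between tissues for H3K27ac, 0 of 28 pairs over 0.1, and 0.00 to 0.32 for H3K4me3, 5 of 21), so the numbers were not taken to pair samples. Unknown depth and list length limit every statement that a mark was absent.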
